A study of Mus musculus with 6 samples.

Results

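The sirtuins Sirt1, Sirt2, Sirt3, Sirt5, Sirt6 and Sirt7, together with Nampt, Nmnat1 and Cd38, were examined in macrophages from young and aged mouse skin wounds. These 9 genes were chosen by symbol, 6 of them as sirtuins and 3 as genes that make or break down NAD. All 9 were among the 15168 genes of the deposited table, and all 9 were among the 11878 genes with enough counts to test. The cells came from full-thickness excisional wounds, 10 mm across, on the backs of female C57BL/6J wild-type mice. The wounds were harvested on Day 3 after wounding, when inflammation prevails. The 3 young samples are labelled 12 weeks and the 3 aged samples 24 months. Both ages were wounded and sorted in the same way, by F4/80 and CD64 in the labels and by CD45 and CD11b as well in the methods, so the only labelled difference was age. Each age has samples of sets A, B and C. The labels do not say whether a sample came from 1 mouse or from several, so p-values measure the spread between these samples only.

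Sirtuins remove acetyl and other acyl groups from lysines and use up NAD as they do so. Sirt1, Sirt6 and Sirt7 are mainly nuclear, Sirt2 is mainly cytoplasmic, and Sirt3 and Sirt5 lie in mitochondria. Nampt makes nicotinamide mononucleotide from nicotinamide, the rate-limiting step of NAD salvage, and Nmnat1 turns that product into NAD in the nucleus. Cd38 is a membrane glycohydrolase that cleaves NAD, and it is induced in inflammatory macrophages. In macrophages, Sirt1 is known to deacetylate the NF-kB subunit encoded by Rela.

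Sirt1 and Cd38 rose in the aged macrophages, Sirt3 fell, and the other 6 genes did not pass the test. Mean Sirt1 was 1.63-fold higher, mean Cd38 was 1.69-fold higher, and mean Sirt3 fell by 60.2%, each over 3 aged against 3 young samples. Levels are in CPM, the counts of a gene scaled to the size of each library. The test was edgeR's quasi-likelihood fit, and a gene passed when its p, adjusted across every tested gene by Benjamini-Hochberg, was under 0.05. Of all tested genes 17.7% passed, 9.73% as higher and 7.97% as lower in aged macrophages, so 55.0% of the calls were higher in aged samples, against 43.6% with upper quartile scaling. The members' 3 of 9 stand beside that background as a description. Of the 9, only Sirt3 both passed and changed by more than 2-fold, where 8.79% of all genes did. That count was 2 without young A and 0 without young B, without young C or without aged C. The median log2 fold change was -0.24 over the 9 genes and -0.02 over all tested genes, and 7 of the 9 values were below 0.

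**Figure D1:**
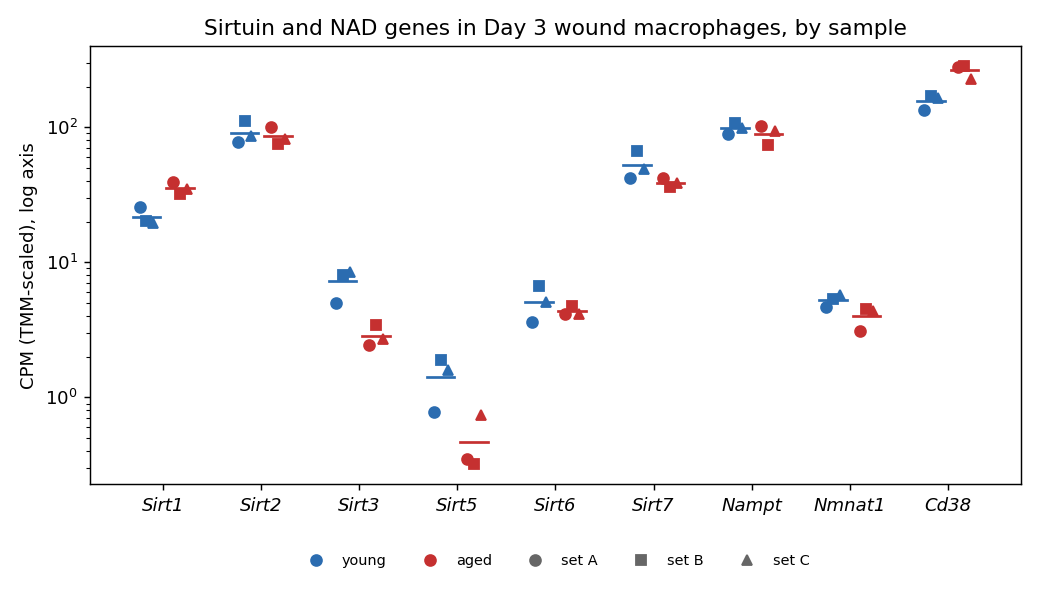
CPM (log axis) of the 9 genes in each sample, with young samples in blue, aged samples in red, set letters as symbols and group means as bars. The aged Sirt1 and Cd38 values all lie above the young ones, from 32.2 and 228 CPM upwards, and the aged Sirt3 values all lie below, at 3.44 CPM or less.

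The bases upstream of a gene's start are shown for Sirt1, the nuclear sirtuin that rose, and for Nampt, the salvage enzyme whose level did not pass the test, so that their sequence can be compared. Both come from the RefSeq promoter table of GRCm38.p6, which held all 9 genes, and both read 5′ to 3′ on the gene's own strand. Capitals mark 2 kinds of match, the E-box CACGTG and the GC box GGGCGG, searched on both strands.
Sirt1, chr10:63339051-63339285, minus strand: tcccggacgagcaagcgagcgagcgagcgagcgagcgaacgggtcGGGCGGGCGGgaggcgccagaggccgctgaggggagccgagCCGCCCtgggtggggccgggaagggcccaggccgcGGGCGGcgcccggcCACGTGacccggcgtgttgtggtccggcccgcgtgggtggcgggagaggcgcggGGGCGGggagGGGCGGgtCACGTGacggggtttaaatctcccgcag
Nampt, chr12:32820085-32820334, plus strand: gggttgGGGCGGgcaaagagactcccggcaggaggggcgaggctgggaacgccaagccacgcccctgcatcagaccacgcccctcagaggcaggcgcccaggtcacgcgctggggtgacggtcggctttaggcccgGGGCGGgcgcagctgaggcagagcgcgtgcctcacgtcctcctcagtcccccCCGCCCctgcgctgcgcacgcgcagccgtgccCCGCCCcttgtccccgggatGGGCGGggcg

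The starts are those of RefSeq. In the GENCODE annotation 1 transcript of each of these 2 genes begins further upstream, so both stretches lie within the gene spans given for Sirt1 and Nampt. The Sirt1 stretch leaves out the 15 bases next to the start site, which lie in an annotated UTR of another Sirt1 transcript. The E-boxes of Sirt1 lie from -115 to -110 and from -43 to -38 relative to the RefSeq start. No other member has an E-box in its 250 upstream bases, and 6.02% of 32817 such windows have one. Sirt1 has 6 GC boxes, 2 of which overlap, and Nampt has 5, where 32.7% of windows have at least 1. An NF-kB motif matches once upstream of Sirt6, from -43 to -34. It matches on both strands of 1 overlapping site upstream of Sirt2, and 3.90% of windows have a match. The letters TATAAA occur in none of the members' windows and in 12.4% of all windows. The Sirt1 window holds 39 CpG dinucleotides at 79.2% GC, that of Nampt 27 at 75.6%, and that of Cd38 only 1 at 48.8%. The median window holds 6 at 52.4% GC, and 37.8% of windows hold 3 or fewer. The Cd38 window lies within an annotated UTR, so its sequence is not shown. Annotated UTRs also cover 156 of the 250 bases for Sirt2 (of Nfkbib and Sirt2) and 148 for Sirt7 (of Mafg). They cover 152 and 162 bases in the Sirt3 windows (of Psmd13), and 204 and 212 in those of Nmnat1 (of Lzic or Nmnat1). In the Sirt6 windows they cover 35 and 231 bases, and 39 in that of Sirt5. These matches describe letters in a window and were not tested as binding sites.

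Sirt1, the nuclear deacetylase, lies on chromosome 10 from 63319005 to 63381704 on the minus strand of mm10. Its level was 25.8, 20.2 and 19.4 CPM in young samples A, B and C, and 39.7, 32.2 and 35.0 CPM in aged samples A, B and C. The 3 aged values lie above the 3 young values, and the gap between the highest young and the lowest aged sample is wider than the SD of either age. The means were 21.8 ± 3.47 CPM and 35.6 ± 3.76 CPM (SD, n = 3 each), from 294 to 566 counts per sample. The log2 fold change was 0.71 (SE 0.18, 95% interval 0.31 to 1.11) with an adjusted p of 0.0266. Exons of Sirt1 share 250 bases with the antisense gene Gm16145, for which no values were analysed here, and reads there cannot be told apart without strand. Sirt1 passed in 2 of the 6 fits that left out 1 sample. The adjusted p of Sirt1 was 0.0861 without young B, 0.120 without young C, 0.0656 without aged A and 0.0827 without aged C, at log2 fold changes of 0.63 to 0.85 over the 6 fits.

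Sirt6 and Sirt7 are the other nuclear members, Sirt6 acting at telomeres and DNA breaks and Sirt7 in the nucleolus. Sirt6, on chromosome 10 from 81621785 to 81627797, was at 3.60, 6.69 and 5.09 CPM in young and 4.13, 4.71 and 4.14 CPM in aged samples A to C. The ages overlap, and the young samples spread more widely than the aged ones. The difference was -0.24 on the log2 scale (SE 0.29, 95% interval -0.89 to 0.41, adjusted p = 0.593). Sirt7, on chromosome 11 from 120618372 to 120625240, was at 42.4, 66.8 and 49.1 CPM in young and 42.1, 35.9 and 38.5 CPM in aged samples. The aged values are all lower, but aged A and young A are almost level. The difference was -0.44 (SE 0.19, 95% interval -0.87 to -0.01), with an unadjusted p of 0.0440 and an adjusted p of 0.133. The exons of Sirt7 share 124 bases with Mafg on the same strand, and Mafg, which encodes a small Maf transcription factor, went from 42.1 ± 12.5 to 86.3 ± 24.3 CPM (log2 fold change 1.03, adjusted p = 0.0238).

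Sirt2, the cytoplasmic tubulin deacetylase, was the most abundant sirtuin message. It lies on chromosome 7 from 28766735 to 28788661. Its level was 77.7, 111 and 85.5 CPM in young and 101, 75.5 and 81.2 CPM in aged samples A to C. The ages overlap, with the highest value in young B and the lowest in aged B. The log2 fold change was -0.09 (SE 0.19, 95% interval -0.50 to 0.33, adjusted p = 0.777). Exons of Sirt2 share 392 bases with the gene Nfkbib on the opposite strand, which encodes an NF-kB inhibitor. Nfkbib had means of 144 ± 9.64 CPM (young) and 191 ± 20.1 CPM (aged) (adjusted p = 0.100).

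Sirt3, the main mitochondrial protein deacetylase, was the one member that passed both the test and the 2-fold mark. It lies on chromosome 7 from 140863666 to 140882309 on the minus strand. Its level was 5.03, 8.10 and 8.52 CPM in young and 2.45, 3.44 and 2.72 CPM in aged samples A to C. Every aged value is below every young value, and young A is the lowest of the young samples. The means were 7.22 ± 1.90 and 2.87 ± 0.511 CPM, which rest on 91, 138 and 129 counts in young and 35, 54 and 44 counts in aged samples. The log2 fold change was -1.32 (SE 0.30, 95% interval -1.99 to -0.66) with an adjusted p of 0.0185. Sirt3 passed in 3 of the 6 fits that left out 1 sample, and its adjusted p was 0.0611 without young B, 0.0929 without young C and 0.0689 without aged C. Its log2 fold change lay between -1.53 and -1.19 in those 6 fits.

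Exons of Sirt3 share 342 bases with Psmd13 and 418 bases with Ric8a, both on the opposite strand. The library kit does not mark strand, so reads there cannot be told apart, and the Sirt3 counts were not whole numbers in 4 of 6 samples. Psmd13, a proteasome subunit gene, had means of 117 ± 7.51 and 112 ± 13.1 CPM (log2 fold change -0.06, adjusted p = 0.820). Ric8a, a G protein chaperone gene, was at 34.1 ± 3.76 and 37.7 ± 2.16 CPM (0.14, adjusted p = 0.561). Both are more abundant than Sirt3 itself, and neither passed the test. The part of shared reads in the Sirt3 values was not tested.

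Sirt5, the mitochondrial desuccinylase, had the lowest counts of the 9. It lies on chromosome 13 from 43365496 to 43395203, and no annotated gene overlaps it. Its level was 0.774, 1.88 and 1.59 CPM in young and 0.350, 0.318 and 0.741 CPM in aged samples A to C. The ages do not overlap, but the highest aged sample is close to the lowest young one. These values stand for 14, 32 and 24 counts against 5, 5 and 12 counts, where 1 count is worth 0.0553 to 0.0701 CPM. The log2 fold change of -1.56 had the widest interval of the 9 (SE 0.56, 95% interval -2.79 to -0.32), and its adjusted p was 0.0769. It passed only without young A, at an adjusted p of 0.0479.

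**Figure D2:**
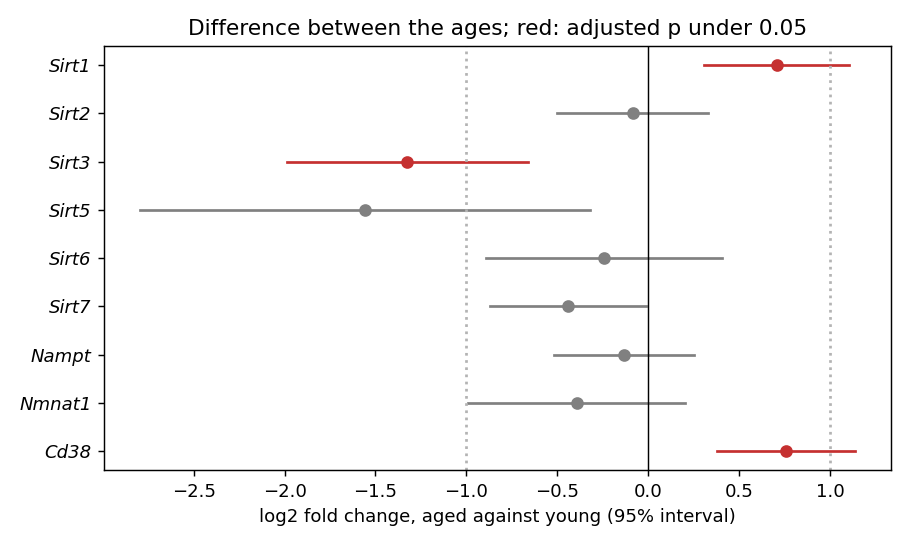
Log2 fold change of each gene in aged against young macrophages, with its 95% interval as a line and dotted lines at 2-fold. Red marks Sirt1, Sirt3 and Cd38, which passed the test, and the interval of Sirt5 is the widest, from -2.79 to -0.32.

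Nampt, the salvage enzyme, lies on chromosome 12 from 32819545 to 32853349. Its level was 89.2, 108 and 98.1 CPM in young and 101.5, 73.4 and 94.4 CPM in aged samples A to C. The ages overlap, and aged B is the lowest sample. The log2 fold change was -0.13 (SE 0.17, 95% interval -0.52 to 0.25, adjusted p = 0.617), so the interval reaches no 2-fold change in either direction. Nmnat1, the nuclear enzyme of the last step, lies on chromosome 4 from 149467572 to 149485202. It was at 4.70, 5.34 and 5.68 CPM in young and 3.08, 4.52 and 4.32 CPM in aged samples. The aged values are all lower, with aged B just under young A. Its exons share 174 bases with Tmem274 on the opposite strand, whose values were not analysed here. Its log2 fold change was -0.39 (SE 0.27, 95% interval -0.99 to 0.20, adjusted p = 0.328).

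Cd38, the NAD glycohydrolase, lies on chromosome 5 from 43868553 to 43912375, and genes that overlap it share none of its exons. Its level was 135, 169 and 165 CPM in young and 277, 285 and 228 CPM in aged samples A to C. All aged samples lie above all young samples, with aged C nearest to them. The means were 156 ± 18.6 and 263 ± 30.8 CPM, from 2435 to 4471 counts per sample. The log2 fold change was 0.76 (SE 0.17, 95% interval 0.38 to 1.14) with an adjusted p of 0.0188. Cd38 passed in 5 of the 6 fits that left out 1 sample, the exception being the fit without young C, where its adjusted p was 0.0807.

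All samples of an age lay on one side of the other age in 6 of the 9 genes, and in 38.2% of all tested genes. Sirt1 and Cd38 were the 2 with aged above young, and Sirt3, Sirt5, Sirt7 and Nmnat1 were the 4 with aged below. With all samples 3 members passed. That count was 4 without young A, which added Sirt5, 3 without aged B, 2 without aged A (Sirt3 and Cd38), 1 without young B and 1 without aged C (Cd38 in both), and 0 without young C. The share of all tested genes that passed moved too, to 22.3% without young A, 12.3% without aged B, 11.3% without aged A, 6.29% without young B, 4.45% without aged C and 1.78% without young C.

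Levels of different genes were set side by side per length of the longest principal transcript, as CPM per kb, as a description. In young samples the order was Sirt2 (49.5), Cd38 (47.7), Sirt7 (30.6), Nampt (21.8), Sirt3 (4.94), Sirt1 (4.92), Nmnat1 (3.80), Sirt6 (2.71) and Sirt5 (1.01). In aged samples it was Cd38 (80.6), Sirt2 (46.6), Sirt7 (22.5), Nampt (19.8), Sirt1 (8.04), Nmnat1 (2.89), Sirt6 (2.29), Sirt3 (1.96) and Sirt5 (0.336). Of neighbours in the young order, the sample values of Sirt2 and Cd38, of Sirt3 and Sirt1, and of Nmnat1 and Sirt6 overlap. In the aged order those of Sirt7 and Nampt, of Nmnat1 and Sirt6, and of Sirt6 and Sirt3 overlap, and the other neighbours are apart in both orders. Sirt1 ranked 6 in young and 5 in aged samples, and Sirt3 ranked 5 and 8.

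**Figure D3:**
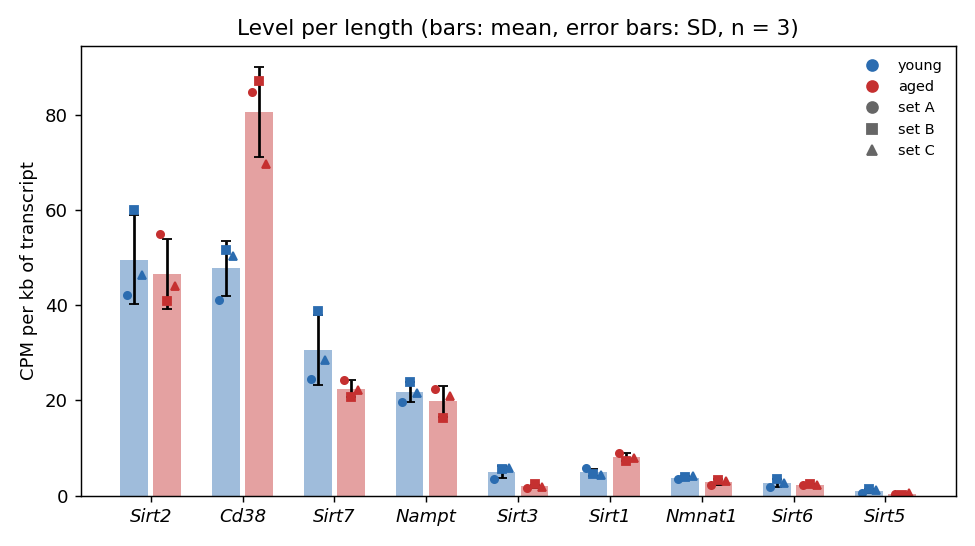
Level of each gene as CPM per kb of transcript in young (blue) and aged (red) macrophages, with bars for the mean, error bars for the SD (n = 3) and a symbol for each sample. Cd38 has the highest aged bar, at 80.6, and Sirt5 the lowest bars, at 1.01 and 0.336.

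Within the summed sirtuin level per kb of the 6 sirtuins, Sirt2 made up 52.2 to 53.8% in young and 55.3 to 59.4% in aged samples. That sum averaged 93.7 ± 18.1 CPM per kb in young and 81.8 ± 9.47 CPM per kb in aged samples. A share also depends on the other sirtuins, and the Sirt2 level itself did not pass the test (log2 fold change -0.09). Sirt7 made up 31.3, 34.0 and 32.0% in young and 26.4, 28.1 and 28.3% in aged samples A to C. Sirt1 made up 4.01 to 7.42% in young and 9.69 to 10.0% in aged samples, and Sirt3 made up 4.39 to 6.56% and 1.82 to 3.18%. The ratio of Sirt1 to Sirt3 was 1.69, 0.822 and 0.752 in young and 5.33, 3.09 and 4.24 in aged samples A to C. The ratio of Cd38 to Nampt was 2.09, 2.16 and 2.32 in young and 3.78, 5.37 and 3.35 in aged samples. In both ratios every aged sample is above every young one, which follows from the single genes and was given no test.

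**Figure D4:**
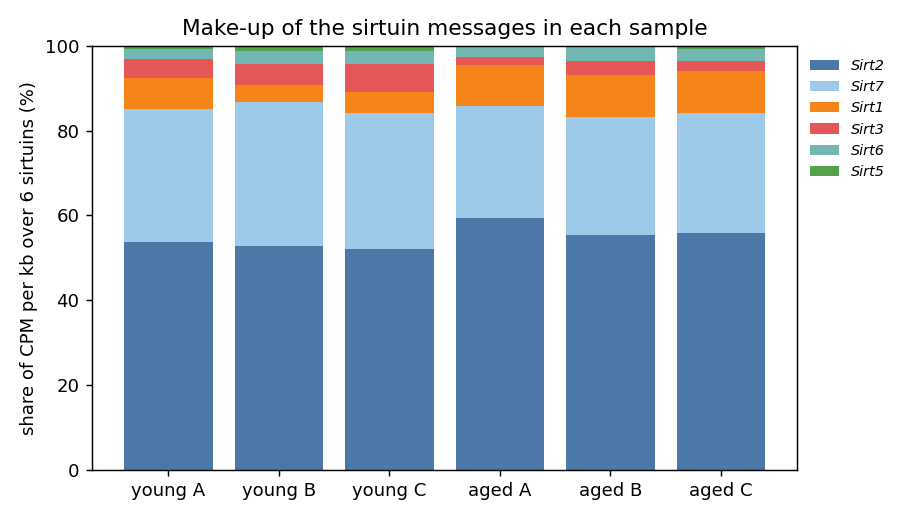
Share of each of 6 sirtuins in their summed CPM per kb, 1 bar per sample. Sirt2 and Sirt7 fill most of every bar, the Sirt1 share lies between 9.69 and 10.0% in the aged samples and the Sirt3 share at 3.18% or less.

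Among other genes of NAD synthesis, 13 of 20 listed genes were tested, 1 rose and 1 fell, with a median log2 fold change of -0.22. Nt5e, which encodes the ectoenzyme CD73, rose from 59.1 ± 10.0 to 96.0 ± 15.7 CPM (0.70, adjusted p = 0.0316). Nmnat3, the mitochondrial counterpart of Nmnat1, fell from 4.52 ± 0.448 to 2.04 ± 0.731 CPM (-1.15, adjusted p = 0.0431). Kmo, of the kynurenine route, had the lowest value, -1.38 (adjusted p = 0.0590), and Kynu, of the same route, the highest, 0.81 (adjusted p = 0.410). None of the 13 passed without young B, young C, aged B or aged C. In those fits 6.29%, 1.78%, 12.3% and 4.45% of all tested genes passed. With the set letter as a replicate block 1 passed, and with limma-voom and quality weights 6 did. Of all tested genes 17.8% and 30.7% passed there.

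Among other genes that consume NAD or nicotinamide, 17 of 19 were tested, none rose and 2 fell, with a median of -0.32. Beside them, 17.7% of all tested genes passed. Parp1, a poly-ADP-ribose polymerase of DNA repair and a large user of NAD, had the lowest value and fell from 35.5 ± 13.4 to 16.1 ± 2.30 CPM (-1.14, adjusted p = 0.0218). Parp12, an interferon-induced mono-ADP-ribosyltransferase, fell from 48.8 ± 7.81 to 28.8 ± 6.19 CPM (-0.76, adjusted p = 0.0303). Nnmt, which methylates nicotinamide, had the highest value, 0.82 (adjusted p = 0.0716). The number that passed was 4 without young A, 1 without aged B or aged C, and 0 without young B, young C or aged A. Of all tested genes 22.3% passed without young A, 12.3% without aged B and 4.45% without aged C. That share was 6.29% without young B, 1.78% without young C and 11.3% without aged A.

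Among regulators and targets of sirtuins, 20 of 25 were tested, 3 rose and 2 fell, with a median of -0.03. Here too the share over all tested genes was 17.7%. Hif1a, the hypoxia-response factor, had the highest value and rose from 280 ± 77.1 to 654 ± 33.4 CPM (1.22, adjusted p = 0.00810). Rela rose from 96.4 ± 8.15 to 185 ± 22.8 CPM (0.94, adjusted p = 0.00828). Sod2, mitochondrial superoxide dismutase and a target of Sirt3, rose from 308 ± 57.8 to 548 ± 120 CPM (0.83, adjusted p = 0.0258). Idh2, another mitochondrial target of Sirt3, had the lowest value and fell from 121 ± 13.0 to 56.7 ± 13.5 CPM (-1.09, adjusted p = 0.00853). Shmt2, the mitochondrial serine hydroxymethyltransferase, fell from 20.9 ± 2.66 to 11.3 ± 2.53 CPM (-0.89, adjusted p = 0.0235). Sirt4, the mitochondrial sirtuin outside the 9, was at 2.64 ± 0.919 and 2.04 ± 0.604 CPM (-0.36, adjusted p = 0.557). The number of regulators and targets that passed was 3 without aged C and 0 without young C, where 4.45% and 1.78% of all tested genes did.

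**Figure D5:**
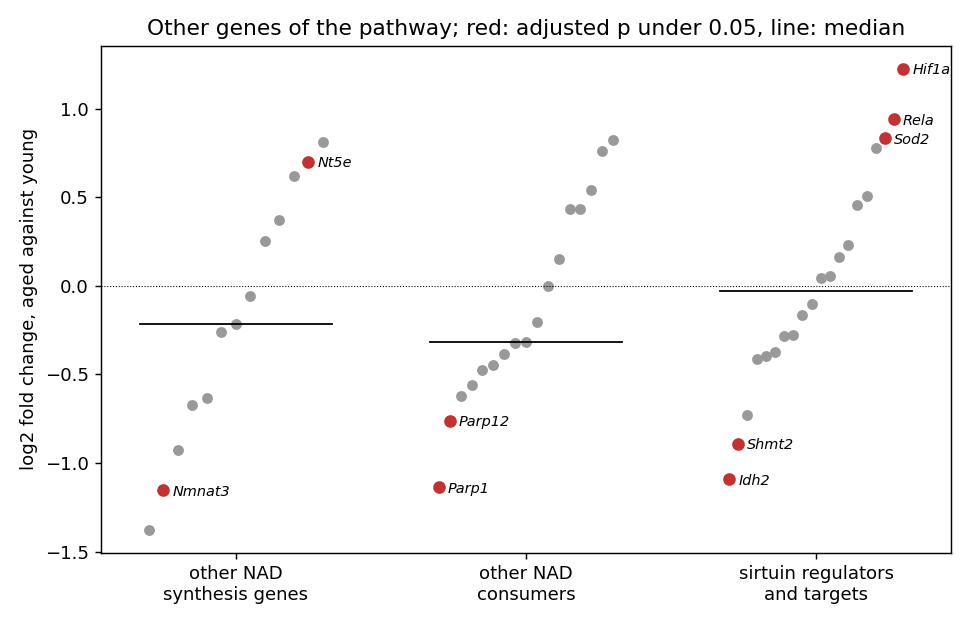
Log2 fold change in aged against young macrophages of the other tested genes in 3 lists, sorted by value, with red for genes that passed the test and a line at the median. Hif1a is highest at 1.22 and Kmo, which did not pass, lowest at -1.38.

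By Pearson correlation of log2 CPM over the 6 samples, the genes most like Sirt1 were Ski (0.996), Eif4h (0.996) and Sidt2 (0.994). Those most like Sirt3 were Nqo2 (0.995), Grcc10 (0.995) and Aga (0.994), and those most like Cd38 were Gpr84 (0.992), Pofut2 (0.991) and Resf1 (0.991). These are the highest of 6587 candidates and describe 6 samples that share the age difference.

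In bulk samples, fewer cells of a type and less RNA per cell cannot be told apart. The total count per sample ranged from 15270103 to 17927483. The macrophage receptor Csf1r averaged 712 ± 66.3 CPM (young) and 771 ± 85.0 CPM (aged) (adjusted p = 0.667). Of the 4 genes behind the sort, Adgre1 (F4/80) fell from 329 ± 35.3 to 204 ± 34.8 CPM (-0.69, adjusted p = 0.0292) and Itgam (CD11b) rose from 376 ± 36.7 to 750 ± 63.7 CPM (0.99, adjusted p = 0.00735). Fcgr1 (CD64) was at 450 ± 24.3 and 500 ± 13.7 CPM (adjusted p = 0.520), and Ptprc (CD45) at 210 ± 17.3 and 251 ± 59.1 CPM (adjusted p = 0.386). Of 10 macrophage markers 5 fell (C1qa, C1qb, C1qc, Cx3cr1 and Ms4a7), at log2 fold changes from -1.87 (Cx3cr1) to -0.92 (C1qc). None rose, and only Csf1r had a log2 fold change above 0. The list summed to 32866 to 47710 CPM (young) and 22378 to 26025 CPM (aged). Most of that sum was Lyz2, with means of 29834 and 18621 CPM, which did not pass (adjusted p = 0.0753). The sort did not exclude Ly6G, and of 14 tested neutrophil markers 4 were higher in aged samples (Cd177, Cxcr2, Lcn2 and Retnlg), although the summed level of the list overlapped, at 718 to 1218 CPM (young) and 927 to 1585 CPM (aged). The neutrophil marker Ly6g itself was at 8.15 ± 2.47 and 8.43 ± 1.95 CPM (adjusted p = 0.923). Their part in the Sirt1, Sirt3 and Cd38 results was not tested. Keratinocyte markers summed to 141 CPM in aged B and to at most 2.10 CPM in any other sample. Without aged B the adjusted p was 0.0372 for Sirt1, 0.0246 for Sirt3 and 0.0425 for Cd38. The part of keratinocyte RNA in these 3 results was not tested. Fibroblast markers summed to 119.9 CPM in aged B and to between 13.2 and 41.1 CPM in the other samples. Endothelial markers summed to 11.8 to 12.6 CPM (young) and 25.9 to 31.1 CPM (aged), where Pecam1 rose from 8.03 ± 1.82 to 25.9 ± 2.08 CPM (1.69, adjusted p = 0.00220). Pecam1 carried that difference, and the means of Kdr (1.95 and 1.46 CPM), Vwf (1.61 and 1.23 CPM) and Cdh5 (0.43 and 0.13 CPM) lay lower in aged samples, where Kdr and Vwf did not pass the test and Cdh5 was too low to be tested, as was Tek (0.059 and 0.234 CPM). Lymphocyte markers summed to 7.40 to 16.3 CPM (young) and 4.65 to 6.73 CPM (aged). Of the 3 tested lymphocyte markers, Cd79b fell (means of 7.73 and 2.59 CPM, adjusted p = 0.0308), while Nkg7 (1.37 and 0.386 CPM, adjusted p = 0.0586) and Trac (0.54 and 1.04 CPM, adjusted p = 0.335) did not pass. Dendritic cell markers overlapped at 16.1 to 55.1 and 33.5 to 94.6 CPM. Mast cell markers summed to 26.5 to 96.2 CPM in young samples and to 67.2, 1.02 and 0.741 CPM in aged A, B and C. The part of these lists and of the sort genes in the results was not tested.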

How the data were processed

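RNA of sorted Day 3 wound macrophages was amplified with the SMART-Seq v4 kit and sequenced as 150 bp pairs. Per the labels and file headers, the authors aligned reads to mm10 with STAR 2.7.3a in Partek Flow and deposited estimated counts per gene on Ensembl transcripts release 102, in rows with a total of at least 10. Of the values 30.4 to 33.9% per sample were not whole, so they were rounded before testing; whether counting used strand is not given in the sources used here.

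Counts of 3 young and 3 aged samples were fitted in edgeR 4.0.16 (R 4.3.3) with TMM scaling and filterByExpr, no block, and p-values adjusted over 11878 genes. CPM use TMM-scaled totals; the biological coefficient of variation was 0.239. The test was also run on simulated data, from which no value is given here. DESeq2 1.42.0, limma-voom 3.58.1 with quality weights, other scalings and filters, the set letter as a block and each sample left out were alternatives. Gene spans are those of the deposited table, less 1 base at the end, which then equals the GENCODE M21 annotation. Named genes were all 9 members, every pathway gene that passed, the highest and lowest of each list, and the 3 genes most like each member that passed, with a mean of at least 10 CPM. Overlapping genes were named after the annotation was read, and single cell type marker genes after their values were seen. The members and lists were chosen with earlier results of these data known.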

Additional observations from a re-analysis of the deposited data

How the results depend on the processing

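Of 116 alternative values for single members, 103 kept their direction and side of the threshold, 8 lost the call, 1 gained it and 4 turned the sign of an uncalled gene. Sirt1, Sirt3 and Cd38 kept their direction in all alternatives and their calls under DESeq2, limma-voom, other scalings, filters and the block. With 1 sample left out, the log2 fold change of Sirt2 ranged from -0.218 to 0.0838 (above 0 without young B and, at 0.0105, without aged B), that of Sirt6 from -0.444 to 0.0065 (above 0 without young B) and that of Nampt from -0.229 to 0.0039 (above 0 without aged B). With limma-voom, 3646 genes passed, 6 of them NAD synthesis genes and 4 NAD consumers. With 1 sample left out, the range was 218 to 2702 for all genes, 0 to 4 for members, 0 to 2 for members past 2-fold, 0 to 3 for NAD synthesis genes, 0 to 4 for NAD consumers and 0 to 6 for regulators and targets. Fewer samples remain in these fits, and other causes were not tested.

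With the set letter as a replicate block, 2114 genes, 3 members and 1 NAD synthesis gene passed. Deviations of same-letter young and aged samples correlated at 0.18, -0.02 and 0.11 over genes in sets A, B and C. Young A correlated best with aged A, while young B and young C correlated best with another letter. The labels do not say what the sets are, so whether the letters pair the samples was not settled. Upper quartile scaling moved the median log2 fold change of all genes from -0.02 to -0.09. Requiring 10 counts in every sample left out Sirt5, whose depth of 5 to 32 counts limits its precision.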
